A study of Rattus norvegicus with 28 samples.

Results

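The genes described here encode the proteasome, its interferon-induced variant (the immunoproteasome), the PA28 activator and the factors that assemble or regulate them. They were chosen by name, as all genes whose symbol begins with Psma, Psmb, Psmc, Psmd, Psme, Psmf or Psmg followed by a digit, with the probe set of highest endothelial mean standing for each gene. This gave 46 of the 14217 genes measured. Of these, Psmc3ip and Psme3ip1 carry such a symbol but encode interacting proteins, not subunits. Psmb6 and Psme3 were listed only on probe sets that also match other genes, so they have no value here. RNA had been measured on Affymetrix arrays in endothelial cells, the cells that line vessels, from the hearts of male rats. There were 8 endothelial groups with 3 arrays each: normal hearts of the DA (Dark Agouti) strain, normal hearts of the Lewis strain, DA hearts transplanted into Lewis recipients (allografts, which carry foreign antigens) and Lewis hearts transplanted into Lewis recipients (isografts), with grafts taken on days 2, 3 and 4. Leukocytes, labelled Lewis, came from allografts of day 2 (1 array), day 3 (2 arrays) and day 4 (1 array). Minced hearts had been cleared of CD45-positive leukocytes with antibody-coated beads before CD31-positive cells were collected, and the age of the rats and the number of hearts per array are not given in the sources used here.

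The proteasome is a barrel that cuts proteins marked with ubiquitin into peptides. Its outer alpha rings gate the entrance, its inner beta rings hold the cutting sites, and the regulatory particle, built of ATPases (Psmc genes) and non-ATPase subunits (Psmd genes), recognises, unfolds and threads the substrate. Interferon-gamma, a cytokine of activated T cells and natural killer cells, induces the catalytic subunits Psmb8, Psmb9 and Psmb10, which replace Psmb5, Psmb6 and Psmb7 in newly built barrels, and the subunits Psme1 and Psme2 of the PA28 cap. These variants favour peptides that fit MHC class I molecules, which display them to cytotoxic T cells, and endothelium is the first donor tissue that recipient T cells meet in a transplant.

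Replicates of a group correlated across genes with r from 0.965 (allografts of day 4) to 0.995 (isografts of day 3). Means of 13 endothelial marker genes were 11.51 to 11.94 log2 on the endothelial arrays. On the leukocyte arrays they were 8.08 to 9.79 log2, as the labels say. Means of gene lists on leukocyte arrays are given after removal of a median shift of 0.359 log2 between the array sets. Means of 14 pan-leukocyte genes on the endothelial arrays were 7.31 to 7.46 log2 in DA normal, 8.74 to 9.17, 8.60 to 9.17 and 8.91 to 9.39 log2 in allografts of days 2, 3 and 4, 7.40 to 7.70 log2 in Lewis normal, and 7.83 to 8.51, 8.01 to 8.81 and 8.28 to 8.69 log2 in isografts of days 2, 3 and 4. The graft preparations thus held leukocyte transcripts that normal preparations held at lower levels, and these means were 11.58 to 11.74 log2 in the leukocytes. Whether a transcript rose in endothelial cells or came with other cells cannot be told apart in such bulk samples, nor can fewer cells of a type from less RNA per cell. The 3 arrays of a group are called biological replicates in the series, and the p-values measure the spread between these samples only.

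Allografts were compared with DA normal endothelium, the donor strain, to ask what changed in the vessel lining of a mismatched heart. On day 4 the immunoproteasome subunits Psmb8, Psmb9 and Psmb10 and the PA28 subunit Psme2 rose to about 1.9 to 2.2 times their normal signal. With them rose several alpha and beta subunits of the barrel, the regulator Psmf1, the chaperone Psmg4 and 1 subunit of the regulatory particle. On days 2 and 3 no member passed the test. All values below are log2 signals or log2 differences, on which 1 is a doubling of the signal.

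Psmb9, which takes the place of Psmb6, gave 11.32, 11.46 and 11.57 log2 on the 3 DA normal arrays. In allografts it gave 11.54, 11.11 and 10.48 log2 on day 2, 12.09, 12.36 and 12.48 log2 on day 3, and 11.86, 12.72 and 13.25 log2 on day 4. The arrays of day 3 and day 4 all lay above every normal array, whereas 2 of the 3 arrays of day 2 lay below them. The day 4 difference from DA normal was 1.16 log2 (SE 0.28, 2.24-fold, limma adjusted p = 0.00846).

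Psmb8, which takes the place of Psmb5, gave 10.48, 10.82 and 11.12 log2 in DA normal. In allografts it gave 10.79, 10.51 and 9.95 log2 on day 2, 11.26, 11.59 and 11.66 log2 on day 3, and 11.03, 12.06 and 12.63 log2 on day 4. The arrays of day 3 lay above every normal array, and 1 array of day 4 lay within the normal range. The day 4 difference was 1.10 log2 (SE 0.28, 2.15-fold, limma adjusted p = 0.0132).

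Psmb10, which takes the place of Psmb7, gave 10.68, 10.72 and 10.79 log2 in DA normal. In allografts it gave 10.71, 10.51 and 10.09 log2 on day 2, 10.99, 11.34 and 11.46 log2 on day 3, and 11.02, 11.65 and 12.22 log2 on day 4. All 6 arrays of the later days exceeded the normal arrays. The day 4 difference was 0.90 log2 (SE 0.21, 1.87-fold, limma adjusted p = 0.00860).

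Psme2, a subunit of the PA28 ring that docks on the end of the barrel, gave 11.09, 11.02 and 11.44 log2 in DA normal. In allografts it gave 11.18, 11.23 and 10.67 log2 on day 2, 11.35, 11.63 and 11.79 log2 on day 3, and 11.35, 12.26 and 12.92 log2 on day 4. A single array of each of the later days overlapped the normal range. The day 4 difference was 1.00 log2 (SE 0.25, 1.99-fold, limma adjusted p = 0.0134).

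Psme1, its partner in that ring, gave 12.35, 12.59 and 12.66 log2 in DA normal. In allografts it gave 12.42, 12.28 and 12.19 log2 on day 2, 12.64, 12.71 and 12.95 log2 on day 3, and 12.49, 13.09 and 13.46 log2 on day 4. Its arrays of day 3 and day 4 overlapped the normal arrays. The day 4 difference of 0.48 log2 (SE 0.17, 1.39-fold) missed the threshold, with limma adjusted p = 0.0764. On day 4, 2 of these 5 genes, 15 of the other 41 members and 14% of all genes had every array above every DA normal array. On day 3 this held for 3 of these 5 genes and 11 of the other 41 members, with no share of all genes taken.

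**Figure D1:**
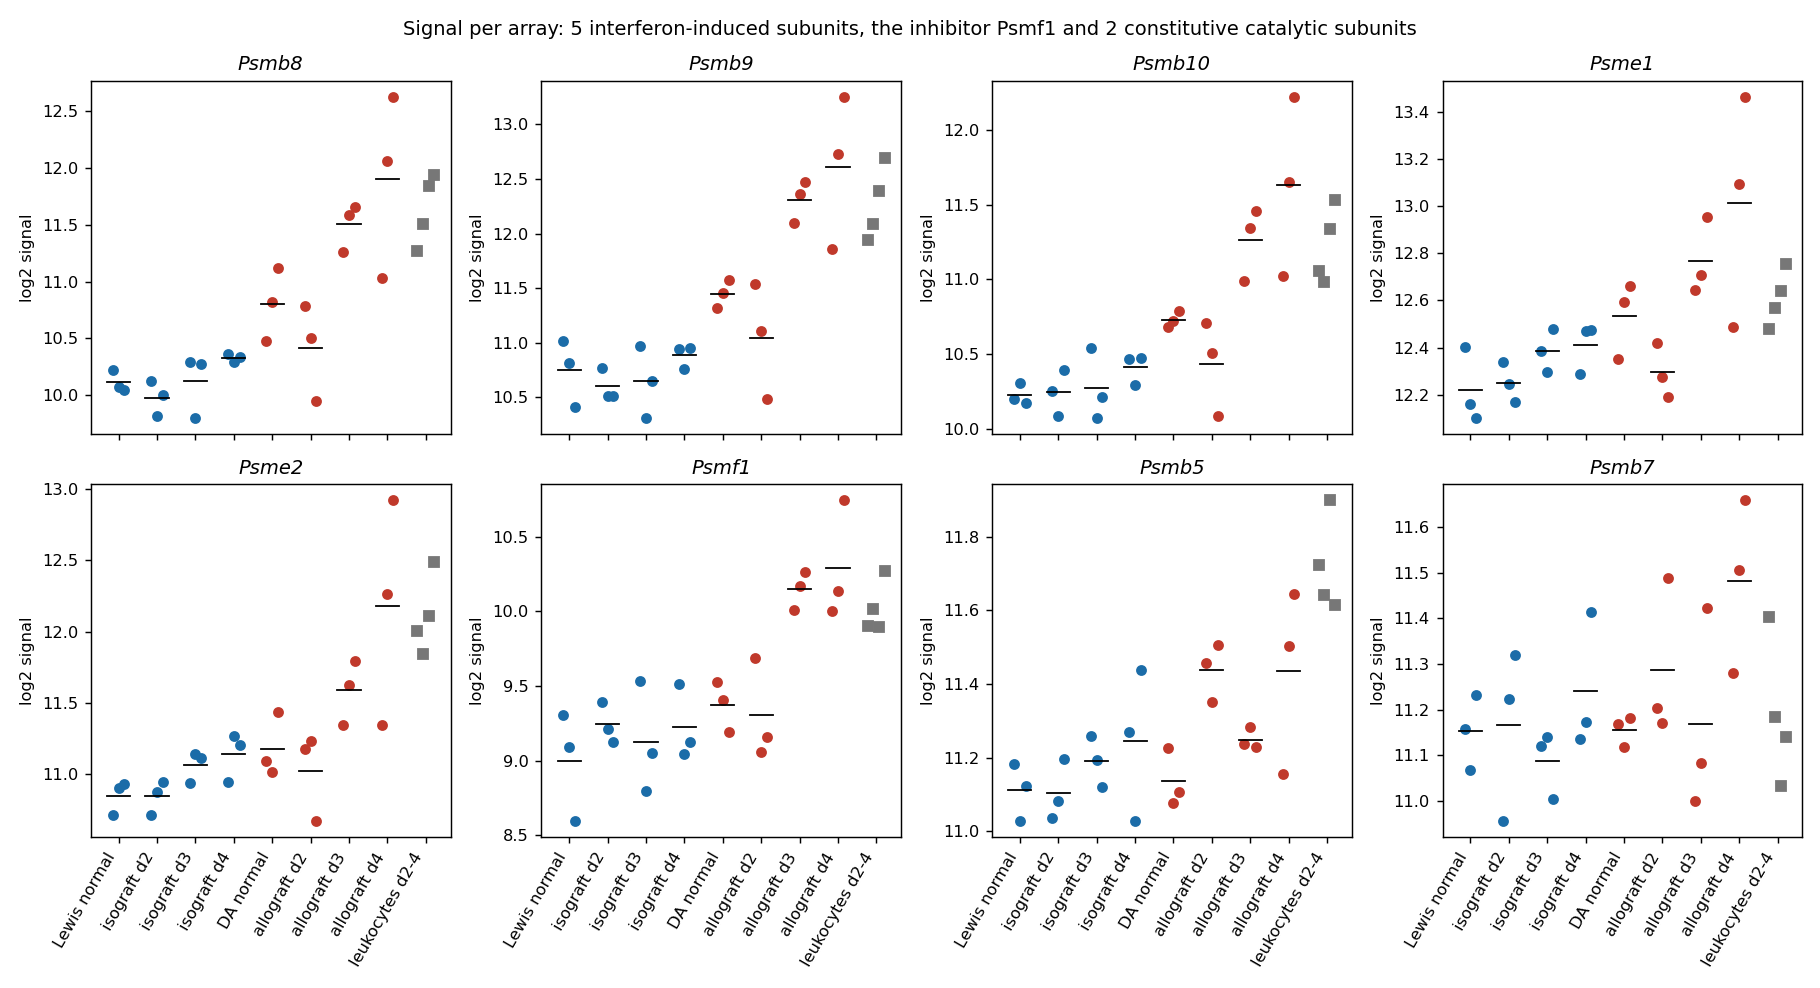
Log2 signal per array (vertical axis, a separate scale per gene) of the 5 interferon-induced subunits, Psmf1 and the constitutive catalytic subunits Psmb5 and Psmb7, in the 8 endothelial groups (blue for Lewis hearts, red for DA hearts, black lines for group means of 3 arrays) and in the 4 leukocyte arrays (grey squares, after removal of the median shift between array sets). Psmb8, Psmb9 and Psmb10 climb between day 2 and day 4 of the allografts, to 12.63, 13.25 and 12.22 log2 on the highest arrays. The day 4 isograft means of the 5 induced genes lie 0.14 to 0.29 log2 above Lewis normal.

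The promoters of these 5 genes are shown because the genes moved together over the arrays, and because interferon-regulated promoters often hold a known pair of GAAA blocks. Each sequence is from RefSeq (build GRCr8), 100 bases before to 20 after the start in its promoter table, on the strand of the gene, with each match to GAAA, any 2 bases and GAAA in capitals. A match on the opposite strand reads as TTTC, any 2 bases and TTTC.
Psmb8 (chr20:4657012-4657131, minus strand): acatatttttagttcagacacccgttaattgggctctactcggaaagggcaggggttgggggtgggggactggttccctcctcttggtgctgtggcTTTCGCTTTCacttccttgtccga
Psmb9 (chr20:4668900-4669019, plus strand): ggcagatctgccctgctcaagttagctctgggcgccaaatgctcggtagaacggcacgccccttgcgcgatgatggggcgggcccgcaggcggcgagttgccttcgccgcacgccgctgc
Psmb10 (chr19:50743273-50743392, minus strand): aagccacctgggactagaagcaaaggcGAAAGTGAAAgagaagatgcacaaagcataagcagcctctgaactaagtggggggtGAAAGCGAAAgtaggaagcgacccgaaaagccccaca
Psme1 (chr15:33038871-33038990, plus strand): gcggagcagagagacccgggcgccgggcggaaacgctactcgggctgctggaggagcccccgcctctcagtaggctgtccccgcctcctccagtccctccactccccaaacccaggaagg
Psme2 (chr15:33052732-33052851, minus strand): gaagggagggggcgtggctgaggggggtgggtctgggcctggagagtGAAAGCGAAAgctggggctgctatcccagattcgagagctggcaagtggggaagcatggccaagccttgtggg

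This pattern, the core of the interferon-stimulated response element, was searched on both strands over 250 bases before to 50 after the start of 33469 annotated promoters, and 3.92% held it. It lay in 7 of the 42 members with a promoter in the table. Of the induced genes it lay in Psmb10 (from -73 and again from -17), Psme2 (from -53) and Psmb8 (from -4, on the opposite strand), counted from the start. Of the other members it lay in Psma4, Psmb3, Psmd7 and Psmg4. TTCNNNGAA, the core of the gamma-activated site, lay in 8.87% of all promoters and in Psmb8, Psmc6, Psmd3 and Psmd7. TGAC, any 3 bases and GCA, the core of the antioxidant response element, lay in 3.0% of all promoters and in Psma3, Psmd1, Psmd3 and Psmd9. GGGA, any base and TTTCC, a form of the NF-kB site, lay in 0.362% of all promoters and in 0 members. No match of one pattern overlapped a match of another in a member. Psmb8 and Psmb9 flank Tap1, the gene of the peptide transporter that feeds MHC class I molecules, on chromosome 20, with 1121 bases between Psmb8 and Tap1 and 408 bases between Tap1 and Psmb9. The window of Tap1 held the paired GAAA pattern from -121, on the opposite strand, and the NF-kB pattern from -55. Psme1 and Psme2 lie 6602 bases apart on chromosome 15. These gaps run between the outer ends of the gene records, and for Psmb8, Psmb9, Psme1 and Psme2 the start used for the windows lies inside the outer end. These matches describe letters in a window and are not measurements of binding.

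Over all 46 members, 13 were higher and 0 lower in allografts on day 4, beside 7.19% of all genes higher and 4.26% lower (limma adjusted p under 0.05). The median difference was 1.00 log2 over the 5 induced genes, 0.27 log2 over the other 41 members, and -0.00 over all genes. Without the third array of day 4 the count of higher members was 1 (Psma5), and without the first array it was 18. It was 6 without the second DA normal array and 9 without the first, without the third, or without the second array of day 4. Here and below, counts with an array left out have no share of all genes beside them. They do not show whether such swings were particular to the members. On day 4 the first array was the lowest and the third the highest for all 5 induced genes, and the same held for 32 and 37 of the other 41 members. The median SD of the 5 induced genes was 0.70 log2 in allografts of day 4 and 0.11 to 0.32 log2 in the other groups. The SEs share 1 spread per gene over all 8 groups. They therefore understate the spread of these genes in allografts of day 4, and the limma p-values carry the same limit.

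The constitutive catalytic subunits, which the induced ones replace, did not pass the test. Psmb5 gave 11.23, 11.08 and 11.11 log2 in DA normal and 11.15, 11.50 and 11.64 log2 in allografts of day 4, a difference of 0.30 log2 (SE 0.12, limma adjusted p = 0.121). Psmb7 gave 11.17, 11.12 and 11.18 log2 in DA normal and 11.28, 11.51 and 11.66 log2 on day 4, a difference of 0.33 log2 (SE 0.13, limma adjusted p = 0.129). For Psmb7 all day 4 arrays were above the normal ones, and for Psmb5 the groups overlapped. Without the first array of day 4 both were called, and so was Psme1.

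To set each induced subunit against the one it replaces, the difference Psmb8 minus Psmb5 and Psmb10 minus Psmb7 was taken within each array and centred on the normal arrays of the donor strain. Such a difference shows unequal change, not the ratio of transcripts. Psmb8 minus Psmb5 averaged -0.69 ± 0.47 log2 on day 2, 0.59 ± 0.21 log2 on day 3 and 0.80 ± 0.56 log2 on day 4 of the allografts (SD, n = 3). Psmb10 minus Psmb7 averaged -0.43 ± 0.48 log2, 0.52 ± 0.14 log2 and 0.58 ± 0.41 log2 on these days (SD, n = 3). In both pairs every allograft array of day 2 was below 0 and every array of days 3 and 4 above 0. Over all 9 allograft arrays against 3 normal arrays the mean shift was 0.23 log2 for Psmb8 minus Psmb5 (two-sided exact permutation p = 0.618) and 0.22 log2 for Psmb10 minus Psmb7 (exact permutation p = 0.518). In isografts the shifts were -0.04 log2 (exact permutation p = 0.800) and 0.07 log2 (exact permutation p = 0.555). After adjustment over these 4 tests each p was 0.8, where 0.00909 is the smallest p the design allows. The day 2 arrays, which lay on the other side of 0, enter these means with equal weight.

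**Figure D2:**
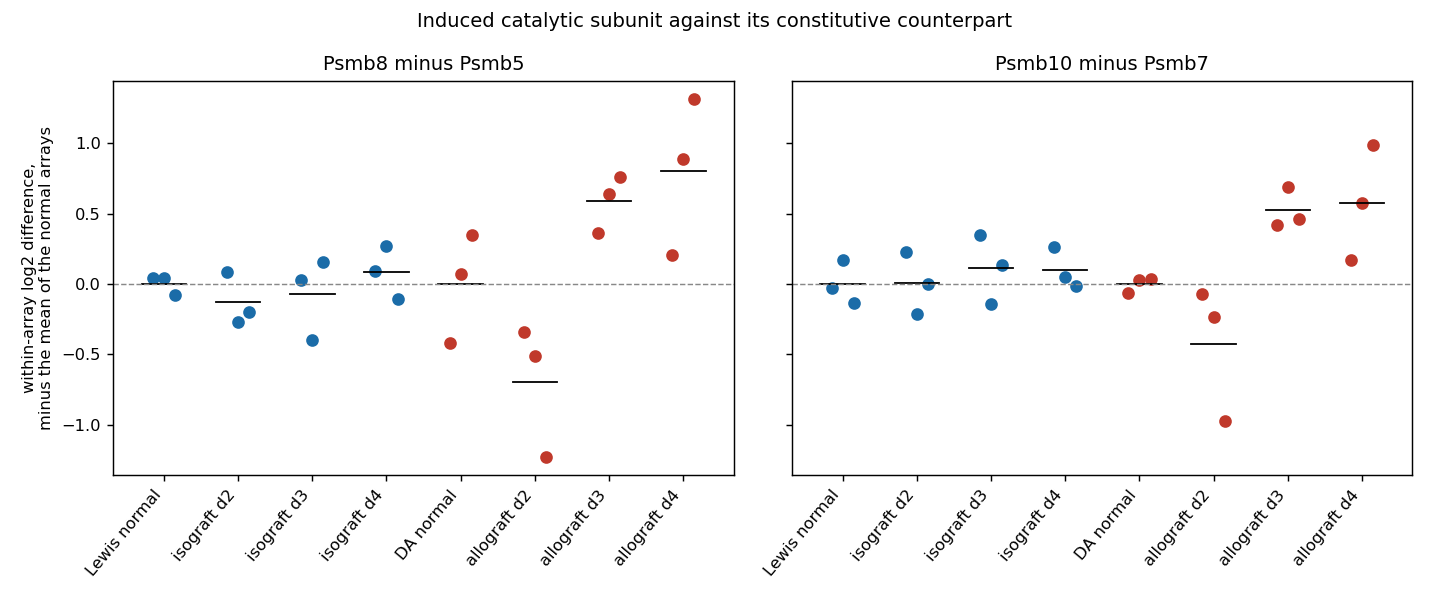
Within-array log2 difference of an induced catalytic subunit and the constitutive one it replaces (vertical axis), minus the mean of the normal arrays of the donor strain, by group (blue for Lewis hearts, red for DA hearts, black lines for means of 3 arrays). The allograft means run from -0.69 to 0.80 log2 for Psmb8 minus Psmb5 and from -0.43 to 0.58 log2 for Psmb10 minus Psmb7 between day 2 and day 4, and the isografts scatter around 0.

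The alpha ring, whose subunits form the gate of the barrel, had 3 of 7 members higher in allografts of day 4, beside 7.19% of all genes. Psma5 gave 11.11, 10.92 and 11.15 log2 in DA normal and 11.33, 11.74 and 12.25 log2 on day 4, with no overlap, and rose by 0.71 log2 (SE 0.16, limma adjusted p = 0.00500). It was the member called also without the third array of day 4, and the one called for the mean of the 3 days (0.45 log2, limma adjusted p = 0.0274). Without any 1 of the DA normal arrays that call over the mean of days was lost. Psma7 gave 11.54, 11.38 and 11.60 log2 in DA normal and 11.65, 12.26 and 12.91 log2 on day 4, and rose by 0.77 log2 (SE 0.20, limma adjusted p = 0.0159). Psma4 rose by 0.45 log2 (SE 0.12, limma adjusted p = 0.0145). Of the 4 that did not pass, Psma3 had the smallest difference, 0.27 log2, and Psma6 and Psma2 differed by 0.55 and 0.48 log2 (adjusted p = 0.0764 and 0.0710).

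Of the beta subunits without a cutting site, 3 of 4 were higher on day 4, beside 7.19% of all genes. Psmb2 gave 11.10, 11.02 and 11.10 log2 in DA normal and 11.16, 11.76 and 12.22 log2 on day 4, and rose by 0.64 log2 (limma adjusted p = 0.0281). Psmb1 rose by 0.51 log2 (adjusted p = 0.0333) and Psmb4 by 0.40 log2 (adjusted p = 0.0308). Psmb3 differed by 0.19 log2 and did not pass. Every array of day 4 lay above every DA normal array for Psmb1, Psmb2 and Psmb4, as for 14% of all genes.

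Of the 6 ATPases of the regulatory particle, which unfold the substrate, 0 passed on day 4, beside the same 7.19% of all genes higher, with differences from 0.05 log2 (Psmc6) to 0.25 log2 (Psmc4). Of its 11 non-ATPase subunits 1 passed, beside 7.19% of all genes. This was Psmd14, the protease that removes the ubiquitin chain from a substrate, with 10.34, 9.93 and 9.94 log2 in DA normal, 10.37, 10.42 and 11 log2 on day 4 and a difference of 0.53 log2 (SE 0.16, limma adjusted p = 0.0390). The smallest difference in this group was that of Psmd11, 0.12 log2. Whether the regulatory particle differed from the barrel in its change was not tested.

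Among the 7 assembly chaperones, which build rings or the base of the cap and leave again, 1 passed, beside 7.19% of all genes. Psmg4, a chaperone of the alpha ring, gave 9.42, 9.40 and 9.56 log2 in DA normal and 9.58, 10.27 and 10.60 log2 on day 4, and rose by 0.69 log2 (SE 0.17, limma adjusted p = 0.0101). Psmd10, a chaperone of the ATPase ring, had the lowest difference, -0.12 log2. Psmf1, also called PI31 and first described as an inhibitor of the barrel, gave 9.53, 9.41 and 9.19 log2 in DA normal. In allografts it gave 9.69, 9.06 and 9.16 log2 on day 2, 10.01, 10.17 and 10.26 log2 on day 3, and 10, 10.13 and 10.74 log2 on day 4. All arrays of days 3 and 4 lay above the normal arrays, on day 4 as for 14% of all genes. Psmf1 rose by 0.92 log2 on day 4 (SE 0.22, limma adjusted p = 0.00980). On day 3 its difference was 0.77 log2 (limma adjusted p = 0.0816). Psme4, another cap of the barrel, differed by 0.35 log2 on day 4 (adjusted p = 0.399). The interacting proteins Psmc3ip and Psme3ip1 differed by -0.02 and -0.07 log2.

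**Figure D3:**
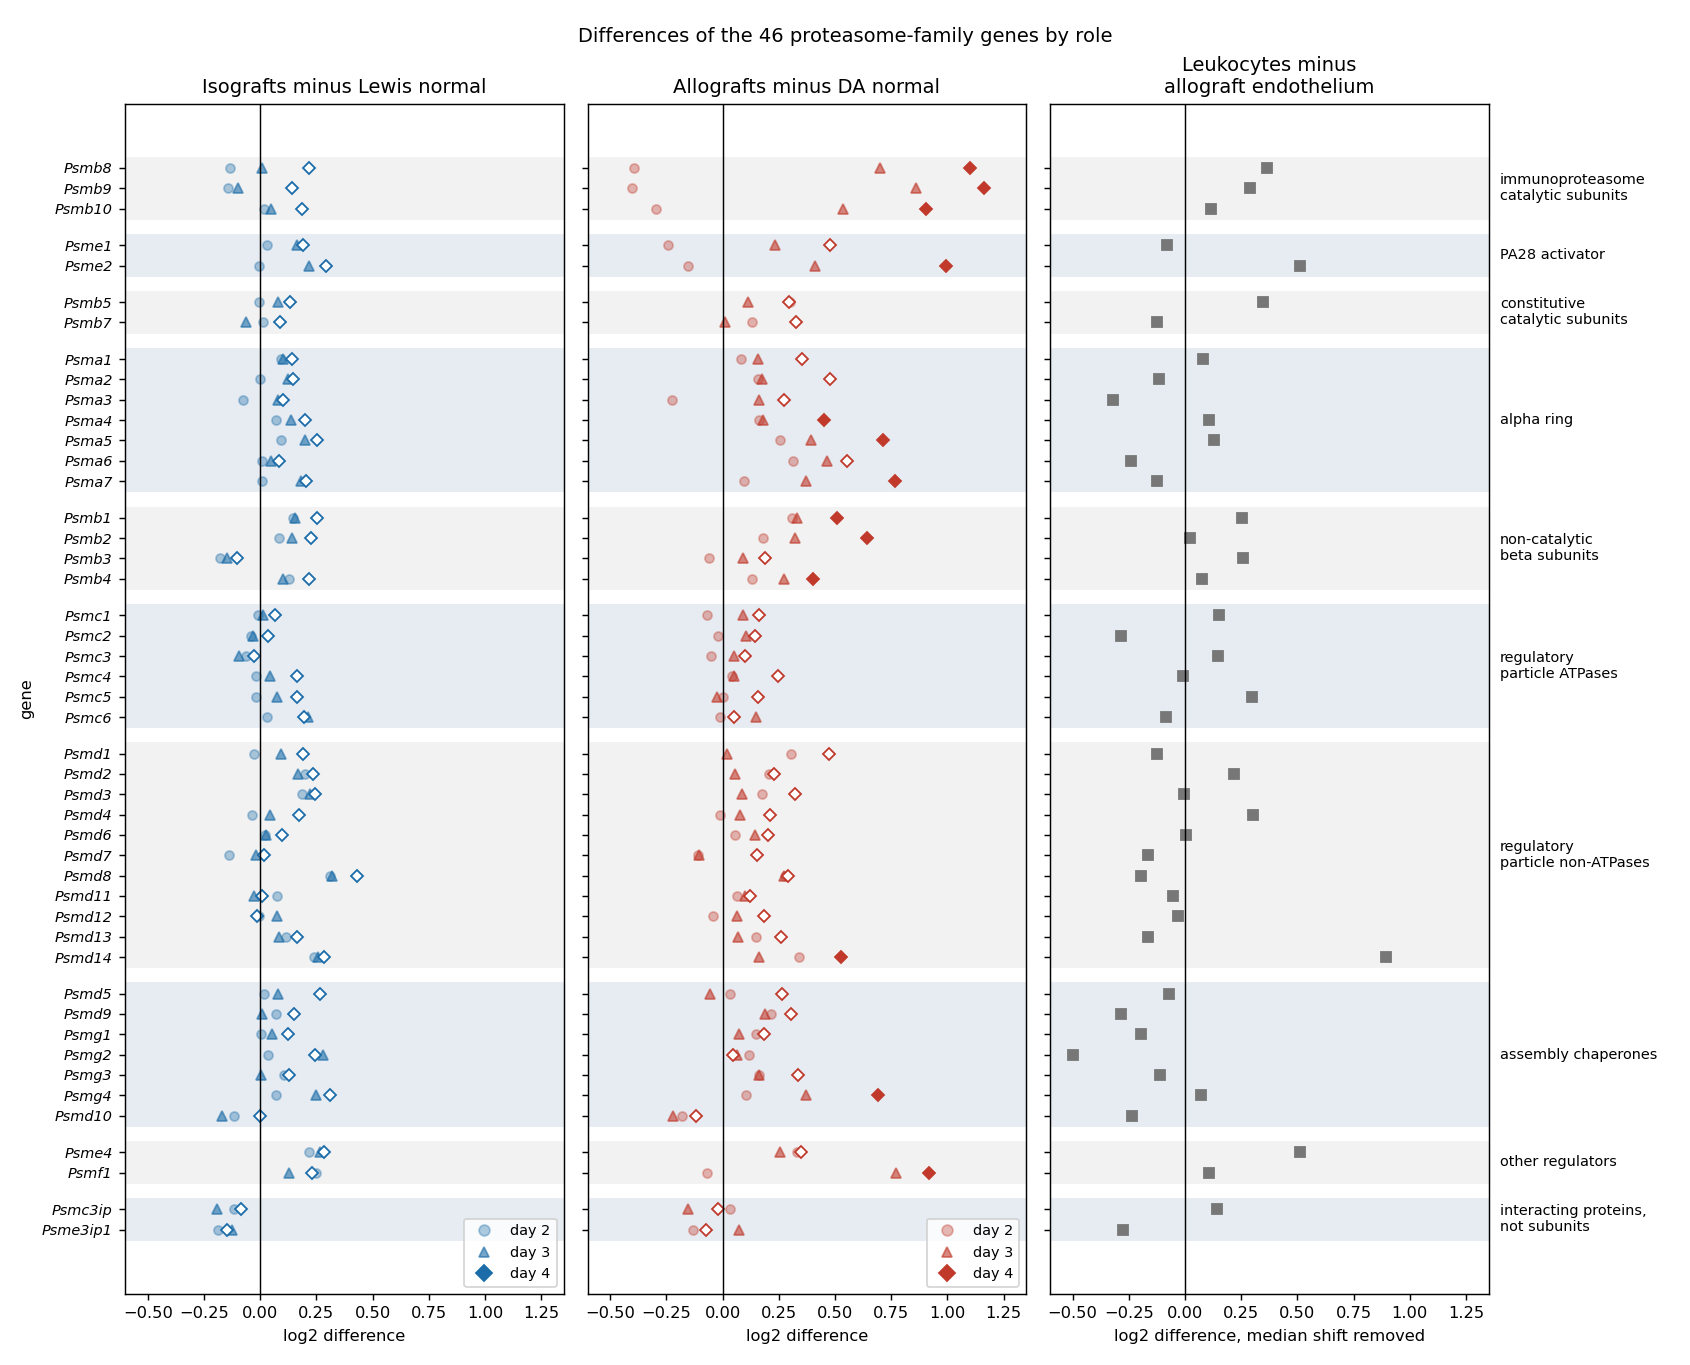
Log2 differences (horizontal axes) of the 46 genes, grouped by role: isografts minus Lewis normal (left), allografts minus DA normal (middle) and leukocytes minus allograft endothelium after removal of the median shift (right). Circles are day 2, triangles day 3 and diamonds day 4. A filled diamond marks a gene with limma adjusted p under 0.05 and an open one a gene without, and no circle or triangle passed. The 13 filled diamonds are all in the allograft panel, the farthest at 1.16 log2 for Psmb9.

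On days 2 and 3 of the allografts 0 of 46 members were called in either direction. On day 2, 3.53% of all genes were higher and 2.45% lower, and 2 members, Psmb5 (0.30 log2) and Psmd14 (0.34 log2), had an unadjusted limma p under 0.05, as had 18.9% of all genes. The 5 induced genes were all below DA normal on that day, by -0.15 log2 for Psme2 to -0.40 log2 for Psmb9, with adjusted p above the threshold for each. On day 3, 1.55% of all genes were higher and 0.724% lower. The induced genes were then above DA normal by 0.23 log2 (Psme1) to 0.86 log2 (Psmb9, SE 0.28, limma adjusted p = 0.132). An unadjusted limma p under 0.05 was found on day 3 for 9 members, among them Psmb8, Psmb9, Psmb10 and Psmf1, and for 10.8% of all genes. Over the mean of the 3 days 1 member was higher and 0 lower, beside 5.57% and 3.84% of all genes.

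The time course within the allografts needs no normal arrays. From day 2 to day 4 Psmb9 rose by 1.57 log2 (SE 0.28, 2.96-fold, limma adjusted p = 0.00852), Psmb8 by 1.49 log2 (SE 0.28, adjusted p = 0.0155) and Psmb10 by 1.20 log2 (SE 0.21, adjusted p = 0.0102). These were the 3 of 46 members called, beside 0.38% of all genes. Psme2 differed by 1.15 log2 (adjusted p = 0.0503) and Psme1 by 0.72 log2 (adjusted p = 0.0710). All 5 induced genes had every day 4 array above every day 2 array, which held for 2 of the other 41 members and 3.39% of all genes. Psmf1 differed by 0.99 log2, and the other 41 members had a median of 0.18 log2. The calls rest on few arrays: without the third array of day 2, or without the second or the third array of day 4, 0 members were called, and without the first array of day 4, 11 were. Without the first or the second array of day 2 the count was 4 or 2.

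From day 2 to day 3, a comparison added after the data were seen, 0 of 14217 genes were called. Psmb9 differed by 1.27 log2, Psmb8 by 1.09 log2, Psmb10 by 0.83 log2, Psme2 by 0.56 log2 and Psme1 by 0.47 log2, each with an unadjusted limma p under 0.05, which 7 of 46 members and 4.75% of all genes had. For all 5 the arrays of day 3 lay above those of day 2 with no overlap. Of the other 41 members 3 lay above and 1 below with no overlap, beside 3.22% of all genes above and 3.79% below.

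What grafting alone did was asked by setting isografts against normal Lewis hearts. No member was called on any day or for their mean, beside 1.06%, 1.8%, 2.61% and 3.29% of all genes higher and 0.422%, 0.732%, 0.556% and 1.26% lower on days 2, 3 and 4 and for the mean. Members with an unadjusted limma p under 0.05 numbered 0, 2, 1 and 1, beside 10%, 12.2%, 14% and 16.4% of all genes, namely Psmd8 and Psmg2 on day 3 and Psmd8 otherwise. Psmd8, a lid subunit, had the largest difference on day 4, 0.43 log2 (limma adjusted p = 0.162). The induced genes differed on day 4 by 0.14 log2 (Psmb9) to 0.29 log2 (Psme2). On that day every isograft array lay above every Lewis normal array for 2 of these 5 genes, Psmb8 and Psme2. The same held for 11 of the other 41 members, with no share of all genes taken. Over the 12 arrays of Lewis hearts, normal and grafted, Psmb9 ranged from 10.31 to 11.02 log2, Psmb8 from 9.80 to 10.36 log2 and Psmb10 from 10.07 to 10.54 log2. Psme2 ranged from 10.71 to 11.27 log2 and Psme1 from 12.10 to 12.48 log2 over them. Markers of other cells moved in isografts too: on days 2, 3 and 4 limma called 3, 6 and 5 of 9 heart muscle genes lower, and 4, 9 and 9 of 10 macrophage genes, 1, 4 and 5 of 14 pan-leukocyte genes, 1, 1 and 3 of 11 T cell genes and 0, 0 and 3 of 6 fibroblast genes higher. Their part in the values of the members was not tested.

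Arrays of allografts and isografts of the same day also parted. On day 3 and on day 4 all 5 induced genes had every allograft array above every isograft array, and on day 2 none had. Of the other 41 members this held for 11, 13 and 6 on days 2, 3 and 4, and of all genes for 5.79%, 7.68% and 6.21%. Such a comparison carries the difference of the donor strains, so the change from the strain's own normal heart was compared as well. For that difference of changes 0 members were called on any day or for the mean, beside 0%, 0%, 0.00703% and 0.00703% of all genes higher. On day 4 the difference of changes was 1.02 log2 for Psmb9, 0.88 log2 for Psmb8 and 0.72 log2 for Psmb10, and these and Psmf1 (0.69 log2) had an unadjusted limma p under 0.05, as had 0, 1 and 0 members on day 2, on day 3 (Psmb9) and for the mean. Of all genes 3.38%, 2.35%, 5.51% and 4.07% had one on days 2, 3 and 4 and for the mean. For Psme2 it was 0.70 log2 and for Psme1 0.29 log2. In isografts 0 members were called between day 2 and day 4 (0.0352% of all genes higher), and 0 had an unadjusted limma p under 0.05, as had 2.41% of all genes. For the difference of both time courses 0 members were called (0.00703% of all genes). That difference was 1.28 log2 for Psmb9, 1.14 log2 for Psmb8, 1.03 log2 for Psmb10, 0.85 log2 for Psme2 and 0.56 log2 for Psme1, and these and Psmf1 (1.01 log2) had an unadjusted limma p under 0.05, as had 2.43% of all genes. Without the first allograft array of day 4 it was called for 4 members, Psmb8, Psmb9, Psmb10 and Psme2.

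The normal hearts of the strains were compared to see the level from which each graft started. DA normal endothelium had more signal than Lewis for each of the 5 induced genes: 0.70 log2 for Psmb9, 0.69 log2 for Psmb8, 0.50 log2 for Psmb10, 0.33 log2 for Psme2 and 0.31 log2 for Psme1. No member was called, beside 0.485% of all genes higher and 0.528% lower in DA. An unadjusted limma p under 0.05 was found for Psmb8, Psmb9, Psmb10 and the alpha subunit Psma1 (0.29 log2), and for 8.29% of all genes. Every DA array lay above every Lewis array for 4 of the 5 induced genes, 7 of the other 41 members and 7.88% of all genes. For Psmb5 and Psmb7 the strains differed by 0.03 and 0.00 log2. Most of the family leaned to DA: 39 of the other 41 members had a difference above 0. Their median was 0.13 log2, beside 0.00 log2 over all genes. Markers of heart muscle moved with this comparison, since 5 of 9 were called lower in DA, with means of 6.11 to 6.84 log2 in DA and 7.42 to 8.27 log2 in Lewis. Their part in the strain difference was not tested. A strain difference in the bases under a probe was not examined.

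Leukocytes of the allografts were set beside allograft endothelium without a test, since their arrays had been normalized apart, and after removal of a median shift of 0.359 log2. With a rule of a 2-fold difference and no overlap, 0 members were higher and 0 lower in leukocytes, beside 8.33% and 9.02% of all genes. Psmb8 was at 11.27 log2 in leukocytes of day 2, 11.50 and 11.84 log2 on day 3 and 11.94 log2 on day 4. Psmb9 was at 11.94 log2 on day 2, 12.09 and 12.39 log2 on day 3 and 12.69 log2 on day 4. These ranges lie inside those of the 9 allograft endothelial arrays, and the mean differences were 0.37 log2 for Psmb8, 0.29 log2 for Psmb9, 0.12 log2 for Psmb10, 0.51 log2 for Psme2 and -0.08 log2 for Psme1. Of all members the highest difference was that of Psmd14, 0.89 log2. The lowest was that of Psmg2, a chaperone of the alpha ring, -0.50 log2. Psmb5 differed by 0.35 log2 and Psmb7 by -0.12 log2. With the values as deposited, 1 member, Psmd14, was 2-fold higher in leukocytes (1.25 log2). Leukocyte arrays of day 3 had endothelial means of 9.22 and 9.79 log2, beside 8.08 log2 on day 2 and 8.36 log2 on day 4. Their heart muscle means were 6.95 and 7.59 log2, beside 5.91 and 5.87 log2. The part of such transcripts in the leukocyte values was not tested.

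Leukocyte markers moved with the induced genes in part. In allografts of days 2, 3 and 4 limma called 10, 8 and 11 of 14 pan-leukocyte genes higher, 10, 8 and 10 of 10 macrophage genes, 3, 6 and 11 of 11 T cell genes, and 4, 0 and 0 of 4 neutrophil genes. Of 2 B cell genes 0 were called. Of 6 fibroblast genes 0, 0 and 3 were higher, and of 9 heart muscle genes 2, 0 and 3 were lower. Pan-leukocyte means of day 2 (8.74 to 9.17 log2) and day 3 (8.60 to 9.17 log2) covered nearly the same range. Other leukocyte means did not. Those of macrophage genes were 8.49 to 9.59 log2 on day 2 and 7.68 to 8.45 log2 on day 3, with no overlap. Those of neutrophil genes were 5.81 to 8.72 log2 and 5.14 to 6.17 log2. The mean of the 5 induced genes was 10.68 to 11.33 log2 on day 2 and 11.67 to 12.07 log2 on day 3. The part of leukocytes in this difference was not tested. The third array of day 2 had the highest pan-leukocyte (9.17 log2), macrophage (9.59 log2) and neutrophil (8.72 log2) means of its group and the lowest mean of the induced genes (10.68 log2). T cell means were 5.76 to 5.88 log2 in DA normal and 6.54 to 6.98, 6.37 to 7.52 and 6.85 to 7.91 log2 in allografts of days 2, 3 and 4. Those of isografts were 6.03 to 6.64, 6.05 to 6.69 and 6.27 to 6.39 log2 on these days. Within day 4 the T cell mean and the mean of the induced genes had the same order over the 3 arrays. They were 6.85, 7.70 and 7.91 log2 and 11.55, 12.36 and 12.90 log2. This order was not particular to T cell genes. All 4 lists of genes outside the family, described below, had it too, with 10.01, 10.15 and 10.35 log2 for proteasome partners. The part of T cell transcripts in the result was not tested.

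With the pan-leukocyte mean of each array as a covariate, 0 members were called on day 4 against DA normal, as were 0 of all 14217 genes in either direction, beside 1022 higher and 605 lower without it, and standard errors were larger. The covariate did not overlap between DA normal (7.31 to 7.46 log2) and allografts of day 4 (8.91 to 9.39 log2). The fit therefore cannot part it from the graft in this comparison, for any gene. The estimates were then 1.47 log2 for Psmb9 (SE 0.64), 1.20 log2 for Psmb8 (SE 0.65), 1.01 log2 for Psmb10 (SE 0.50), 0.52 log2 for Psme2 (SE 0.58) and 1.20 log2 for Psmf1 (SE 0.51), each with limma adjusted p = 1.00. For the called subunits of the barrel they were 0.29 log2 for Psma5, 0.26 log2 for Psmb2, 0.10 log2 for Psma7, 0.08 log2 for Psma4, -0.05 log2 for Psmb1 and -0.02 log2 for Psmb4. The rise from day 2 to day 4 of Psmb8, Psmb9 and Psmb10 kept its call with this covariate, with which 36 of all genes were higher and 1 lower. From day 2 to day 4 of the allografts the pan-leukocyte mean went from 8.88 to 9.20 log2. The T cell mean, which was not a covariate, went from 6.81 to 7.49 log2, and its part in this rise was not tested.

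**Figure D4:**
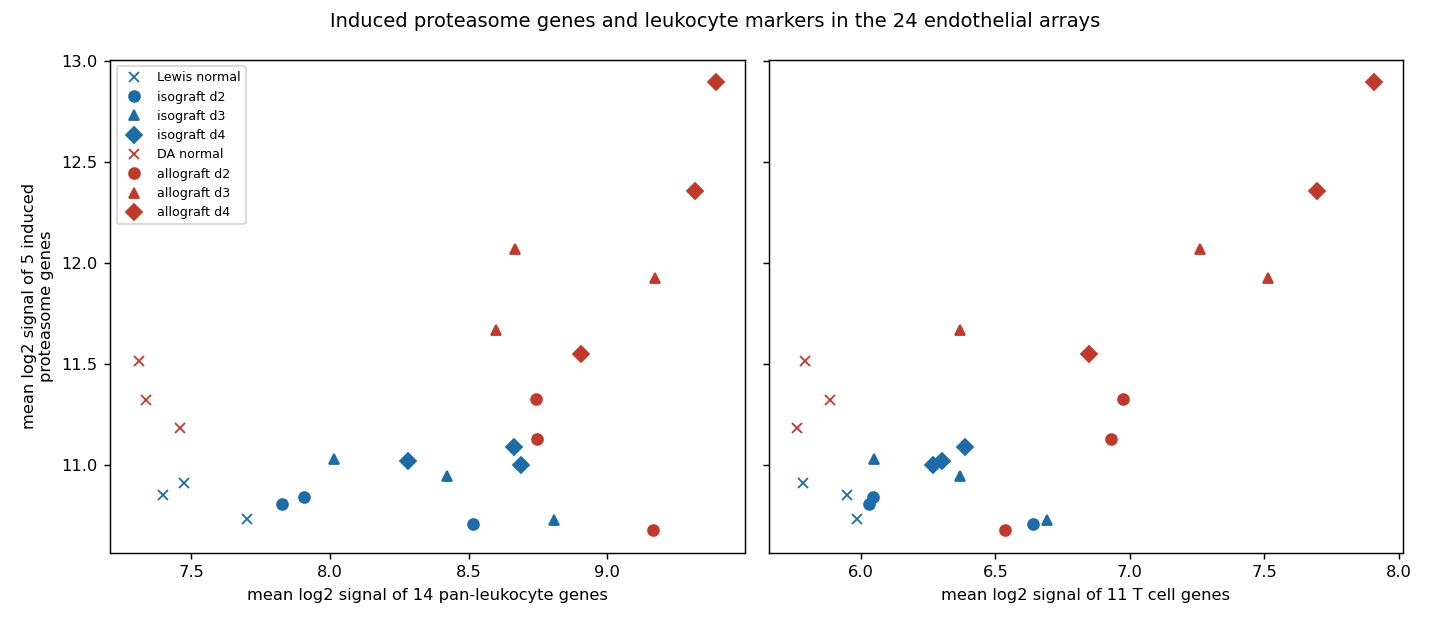
Mean log2 signal of the 5 induced genes (vertical axis) against the mean log2 signal of 14 pan-leukocyte genes (left) or 11 T cell genes (right) in the 24 endothelial arrays, with a symbol per group. Allograft arrays of day 2 (10.68 to 11.33 log2) lie below those of day 3 (11.67 to 12.07 log2) at overlapping pan-leukocyte means. Macrophage means of these days, which are not drawn, did not overlap.

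Genes outside the family were followed in 4 lists. Of 20 partners of the proteasome that were measured, 0 were higher and 0 lower in allografts of day 4, beside 7.19% and 4.26% of all genes. The largest differences were those of the zinc finger gene Zfand2a (0.90 log2, limma adjusted p = 0.290) and of Uchl5 and Usp14, the deubiquitinases bound to the cap (0.39 and 0.37 log2). The dedicated maturation factor Pomp differed by 0.14 log2. On day 2 Zfand5 was lower by -0.47 log2 (adjusted p = 0.0132). Of 10 genes of ubiquitin and like modifiers 3 were higher on day 4, beside 7.19% of all genes. Ubd, which encodes the ubiquitin-like FAT10, a cytokine-induced tag that sends proteins to the proteasome, rose by 3.57 log2 (SE 0.51, adjusted p = 9.76e-05). The conjugating enzyme Ube2n rose by 0.67 log2 (adjusted p = 0.00852) and the activating enzyme Uba1 by 0.50 log2 (adjusted p = 0.0235). Ubd was also called on day 3, by 3.13 log2, and between the strains, where DA normal exceeded Lewis normal by 2.86 log2 (limma adjusted p = 0.00437). In isografts Ubd was called on day 3, by 2.02 log2 (limma adjusted p = 0.0372), and for the mean of days, by 1.88 log2 (adjusted p = 0.00927), while its differences on days 2 and 4, 1.95 and 1.67 log2, did not pass. On day 2 the interferon-induced modifier Isg15 and its conjugating enzyme Ube2l6 were lower, by -1.70 and -0.99 log2 (adjusted p = 0.0295 and 0.00803).

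Of 13 genes of MHC class I loading 2 were higher on day 4, beside 7.19% of all genes: Tap1 by 1.75 log2 (SE 0.27, limma adjusted p = 0.000215) and Nlrc5, the transactivator of class I genes, by 1.75 log2 (SE 0.32, adjusted p = 0.00121). Tap2 differed by 1.41 log2 (adjusted p = 0.0629). Of 12 genes of interferon-gamma signalling 2 were higher, beside 7.19% of all genes. They were the factor Irf8, also high in myeloid cells, by 3.05 log2 (adjusted p = 0.000138) and the kinase Jak1 by 0.60 log2 (adjusted p = 0.00191). Jak2, which acts with Jak1 on the receptor, differed by 0.81 log2 and Ifng by 0.79 log2, and neither passed (adjusted p = 0.125 and 0.0943). Irf9 was lower on day 2, by -1.09 log2 (adjusted p = 0.00261). The medians of these 4 lists on day 4 were 0.15, 0.10, 0.29 and 0.47 log2, beside 0.27 log2 over the other 41 members.

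The genes whose pattern over the 24 endothelial arrays was most like the mean of the 5 induced genes, by Pearson's r, were Igtp (0.961), LOC100910973 (0.960), Il18bp (0.960), RT1-A (0.952), Ido1 (0.947), Dtx3l (0.944), Nlrc5 (0.941), Rnf114 (0.939), Tap1 (0.936) and Wars1 (0.935). The arrays share 8 groups, so these values describe likeness only and have no p. RT1-A encodes a rat class I molecule, Igtp a GTPase and Ido1 an enzyme that breaks down tryptophan. Their day 4 differences from DA normal were 0.80, 1.76 and 5.39 log2. Among the other 41 members the highest values were those of Psmf1 (0.892), Psmg4 (0.888), Psma7 (0.875) and Psmb2 (0.840), and the lowest was that of the ATPase Psmc6 (0.175). Psmb5 and Psmb7 had 0.531 and 0.501.

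Of 9 members with several probe sets, those not used were dimmer. For Psmd14 they gave 0.65 and 0.49 log2 on day 4, beside 0.53 log2 for the one used. For Psme1 the second probe set gave 0.12 log2 at a mean signal of 5.90 log2. The second probe set of Psmc4, one of Psmc6 and that of Psmd9 had differences of -0.09, -0.03 and -0.01 log2, opposite in sign to the ones used.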

How the data were processed

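The deposited values were log2 signals per probe set, which the authors had made with RMA in the affy package, per the submitters' processing notes, which name no versions. Array medians of 6.51 to 6.59 in the 24 endothelial and 6.83 to 6.88 in the 4 leukocyte arrays showed a separate normalization of each set. They were used as they stood, with no filter on dim genes.

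Of 31099 probe sets, 57 controls, 436 listed for several genes and 9780 without a listed gene were left out, and 20826 with 1 gene were kept, of which 20758 had a RefSeq Entrez identifier. The probe set of highest endothelial mean was taken (4525 genes had several), which gave 14217 genes. limma 3.58.1 (lmFit and eBayes, R 4.3.3) was fitted to the 24 arrays with a mean for each group, on 16 residual degrees of freedom and a prior of 4.06. p-values were adjusted over all genes of a comparison after Benjamini and Hochberg and called under 0.05. The median SE of the day 4 allograft comparison was 0.165 log2, and the number of arrays limits the precision.

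Catalytic pairs were tested by exact permutation. The planned pair of Psmb9 and Psmb6 was not run, so 4 of 6 tests were. Leukocytes were compared without a test. Promoters came from RefSeq (GRCr8). Named were the induced genes and their counterparts, members called in a comparison, the largest and smallest difference per role on day 4, the 3 largest differences per list, and the 10 genes most alike. Genes beyond this rule were picked after their values were seen. The members, lists and tests were chosen with earlier results of these data known. Alternatives were repeated quantile normalization, a common median, dim genes left out, the mean of probe sets, a trended prior, the replicate block, the pan-leukocyte covariate and each array left out. The code was tested on simulated data.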

Additional observations from a re-analysis of the deposited data

Results flagged for a closer look

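The change of 3 members differed between time points by a test of that difference. In allografts, day 4 exceeded day 2 by 1.57 log2 for Psmb9 (SE 0.28, limma adjusted p = 0.00852), by 1.49 log2 for Psmb8 (SE 0.28, adjusted p = 0.0155) and by 1.20 log2 for Psmb10 (SE 0.21, adjusted p = 0.0102), with every day 4 array above every day 2 array. Each lost its call without the third array of day 2, without the second array of day 4 or without the third array of day 4, and Psmb8 also without the second array of day 2.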

How the results depend on the processing

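In allografts of day 4, 13 members were called with dim genes left out, the mean of probe sets, repeated quantile normalization or a trended prior, 11 with a common median, and 0 with the pan-leukocyte mean as a covariate, where Psmb1 (-0.054 log2) and Psmb4 (-0.019 log2) changed sign. Leaving out 1 array at a time gave 1 to 18. All genes called higher and lower on that day numbered 1022 and 605, and 952 and 850 with quantile normalization repeated, 876 and 904 with a common median, or 0 and 0 with the covariate. On day 3, 1 member was called with quantile normalization repeated, beside 232 of all genes higher and 116 lower. For the mean of days, 4 were called with quantile normalization repeated, 0 with a common median or the covariate, and 0 to 13 with 1 array left out. Of all genes, 787 were then higher and 696 lower with quantile normalization repeated, 727 and 782 with a common median, and 2 and 1 with the covariate. From day 2 to day 4 of the allografts 5 were called with dim genes left out, beside 63 of 10663 genes higher and 0 lower. With 1 array left out 0 to 11 were called, and the difference of both time courses gave 0 to 4. With 1 array left out, Psme2 on day 2 of the allografts ran from -0.257 to 0.023 log2 and Psmb9 on day 4 of the isografts from -0.028 to 0.274 log2, and neither was called. With leukocyte values as deposited 1 member was 2-fold higher. All 46 members had a mean above the 25th percentile of genes, below which genes counted as dim. The cause of these shifts was not tested.

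With the replicate number as a block, 15 members were called on day 4 of the allografts, 4 for the mean of days (Psma5, Psmb1, Psmb4 and Psmf1) and 5 from day 2 to day 4 (with Psme2 and Psmf1 added). Without the block these counts were 13, 1 and 3. Of all genes, 1152 were higher and 737 lower on day 4 with the block, beside 1022 and 605 without it. For the mean of days 900 were higher and 657 lower with the block. From day 2 to day 4, 51 were higher and 0 lower. Same-numbered arrays deviated together in all 3 pairs for isografts of day 2 and Lewis normal (correlations 0.292, 0.350 and 0.412). In that comparison 0 members were called with and without the block. All 3 pairs were also positive for allografts of day 3 and DA normal (0.32, 0.0743 and 0.363). In the comparisons with the most calls they were not. Correlations were 0.0387, -0.216 and 0.0226 for allografts of day 4 and DA normal. For allografts of day 4 and day 2 they were 0.103, -0.242 and -0.0643. Correlations of each array were averaged over the arrays of other groups that shared a number. For 16 of 24 arrays their own number had the highest mean. The pair shifts with 1 replicate number left out cannot give a p below 0.0714.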
